A study of Rattus norvegicus with 18 samples.

Results

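The genes described here are the rat kidney rows of 5 enzyme families that modify drugs, toxins and endogenous small molecules. A row was taken by its symbol: Ugt, Mgst, Sult or Fmo followed by a digit, or Gst followed by a class letter and a digit. That gave 39 of the 18420 gene rows of the deposited table, 6 in the Fmo family, 4 in the Ugt families, 16 in the Gst classes, 2 Mgst and 11 Sult. Taking rows by symbol used no measured value, but the families were chosen with earlier results of these data known. The comparisons ask how these families stood in diabetic kidney cortex, and after gastric bypass.

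Flavin-containing monooxygenases (FMO) use NADPH and oxygen to oxidise nitrogen and sulphur atoms. The conjugating enzymes attach a polar group: UDP-glucuronosyltransferases (UGT) add glucuronic acid, glutathione S-transferases (GST) and their microsomal relatives (MGST) use glutathione, and sulfotransferases (SULT) transfer sulphate from the donor PAPS. The proximal tubule of the kidney is known for glucuronidation and for turning glutathione conjugates into mercapturates that leave in the urine.

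Messenger RNA of kidney cortex was sequenced in 18 libraries from Zucker diabetic fatty (ZDF) rats, 6 in each of 3 groups. The RYGB group was diabetic, fa/fa, and had undergone surgery by Roux-en-Y gastric bypass, which leaves a small stomach pouch joined directly to the jejunum. The disease group was diabetic and fa/fa with no operation named in its labels, and the healthy control group was lean, non-diabetic and fa/+. The fa allele impairs the leptin receptor, so genotype and diabetes cannot be told apart between disease and healthy control, and a lean operated group is not among the samples. The labels give no sex, age, batch or time after surgery, and whether the 6 libraries of a group are 6 animals is not stated, so p-values rest on library spread, which may be partly technical. In bulk tissue, fewer cells of a type and less RNA per cell cannot be told apart.

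Libraries held between 8116638 (healthy control replicate 4) and 42713246 (RYGB replicate 5) reads within genes. Values are normalised reads, that is reads divided by the library's size factor. Some libraries stood apart from their group. In 4.93% of the 13988 tested genes healthy control replicate 4 was set apart from its group, at the high or low end. The share was 4.05% for RYGB replicate 3, 3.08% for healthy control replicate 1, 2.55% for disease replicate 6 and 2.24% for RYGB replicate 2. Merely being the highest or lowest of the group was not counted. The other 13 libraries were so placed in 0.0929 to 0.858%. Transcripts that define the cortex's proximal tubule were present in every library: the protein uptake receptor Cubn had 5048 to 19019 normalised reads and the phosphate carrier Slc34a1 40156 to 122436.

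Of the 39 enzyme genes, 33 had at least 10 normalised reads in at least 6 libraries and were tested. The other 6 were Gstm3l, at most 10.8 in any library, and Gstm6, Sult1d1, Sult2a2, Sult6b1 and Ugt2b, at most 4.26. Sult4a1 passed with 2 RYGB, 0 disease and 4 healthy control libraries at that level, so its passing already reflects its higher groups. Genes with an adjusted p below 0.05 in limma (Benjamini-Hochberg over all 13988 genes) are described as called, and fold changes are log2 values ± SE on the log2(value + 1) scale.

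The diabetic cortex had lower Ugt2b35 and higher Sult1a1 and Sult1c3 than the lean cortex. After bypass, Fmo4, Ugt2b35, Ugt1a7c and Mgst1 were higher than in unoperated diabetic rats, and no enzyme gene was called lower. Against lean rats, the bypass cortex had higher Mgst1 and Sult1a1 and lower Gsta1. Of these 10 calls, 6 held under every alternative setting and without any 1 library: both calls of Ugt2b35 and of Mgst1, and the calls of Sult1a1 and Gsta1 for RYGB against healthy control. The disease libraries enter 2 of the comparisons, as do the RYGB and the healthy control libraries, so a level peculiar to 1 group shows in both.

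For disease against healthy control, 2 of the 33 genes were called higher and 2 lower, beside 1.61% of all tested genes called (0.579% higher, 1.03% lower). The median log2 fold change was -0.065 over the enzyme genes and 0.0016 over all genes. At an unadjusted p below 0.05 there were 3 higher and 9 lower enzyme genes, 36.4% of the 33, against 11.1% of all genes (5.19% higher). The fold change was above 0 in 13 of the 33 genes, against 50.4% of all genes. Without Sult4a1, whose disease libraries were all under the minimum, 8 of 32 were lower and 13 of 32 above 0. The groups did not overlap in 2 of the 33 genes, Ugt2b35 among them, against 1.24% of all genes.

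For RYGB against disease, 5 of the 33 were called higher and 0 lower, beside 3.95% of all genes called (1.84% higher, 2.1% lower). The 0 in limma stood beside 3 lower genes at an unadjusted p below 0.05, and edgeR and DESeq2 each called 1 lower gene, Sult1c3. The median log2 fold change was 0.35 over the enzyme genes and -0.00087 over all genes. The 11 tested general markers of the proximal tubule had a median of 0.40 in the same comparison, and their part in the enzyme values was not tested. The fold change was above 0 in 27 of the 33 genes (81.8%; 26 of 32 without Sult4a1), against 49.9% of all genes. At an unadjusted p below 0.05 there were 14 higher and 3 lower, against 20.7% of all genes (11.2% higher). No overlap was seen in 2 of the 33, Mgst1 among them, against 2.6% of all genes.

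For RYGB against healthy control, 2 were called higher and 1 lower, beside 4.44% of all genes called (2.46% higher, 1.98% lower). The median log2 fold change was 0.19 over the enzyme genes and -0.013 over all genes. At an unadjusted p below 0.05 there were 7 higher and 5 lower, 36.4% of the 33, against 26.2% of all genes (14.4% higher). The fold change was above 0 in 25 of the 33 genes (75.8%), against 48.4% of all genes. Without healthy control replicate 4, 6 enzyme genes were higher and 2 lower, while the calls over all genes rose from 621 to 1501. The added ones were Fmo5, Gstk1, Gsto1 and Gstz1 (higher) and Sult1c2 (lower). Without disease replicate 1, 5 or 6 or RYGB replicate 3, Sult1c2 made the lower count 2. Over all genes 649, 695, 1057 and 1403 were called in these settings. Only Mgst1 had groups that did not overlap, against 3.22% of all genes.

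The family counts stand beside those of all 13988 tested genes. In the order disease against healthy control, RYGB against disease and RYGB against healthy control, limma called 1.61%, 3.95% and 4.44% of them. At an unadjusted p below 0.05 the shares were 11.1%, 20.7% and 26.2%. edgeR called 224, 629 and 846 genes and DESeq2 410, 1098 and 1602. By family, of the 3 tested UGT genes 1 was called lower in disease and 2 higher in RYGB than in disease. Limma, edgeR and DESeq2 called 0 UGT genes for RYGB against healthy control, where 2 were lower at an unadjusted p below 0.05. Of the 14 tested GST genes limma, edgeR and DESeq2 called 0 for disease against healthy control and 0 for RYGB against disease. At an unadjusted p below 0.05 the GST counts were 1 higher and 1 lower, and 4 higher and 2 lower. For RYGB against healthy control limma and edgeR called 1 GST gene, Gsta1 (lower), and DESeq2 called Gstk1 and Gsto1 higher as well, with 4 higher and 1 lower at an unadjusted p below 0.05. Of the 8 tested SULT genes limma called 2 higher in disease than in healthy control and 0 lower, edgeR 1 higher and 1 lower, and DESeq2 2 higher and 1 lower. At an unadjusted p below 0.05 there were 2 higher and 4 lower, the lower being Sult1c2, Sult1c2a, Sult2b1 and Sult4a1. The median of the 8 was -0.54, with 6 below 0. Sult4a1 enters all of these, and its passing the filter already reflects its higher groups, so they lean lower. For RYGB against disease limma called 0 SULT genes, edgeR 1 (lower) and DESeq2 2 (1 higher, 1 lower), with 2 higher and 1 lower at an unadjusted p below 0.05. For RYGB against healthy control limma called 1 higher, edgeR and DESeq2 each 1 higher and 1 lower, with 1 higher and 2 lower at an unadjusted p below 0.05.

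**Figure D1:**
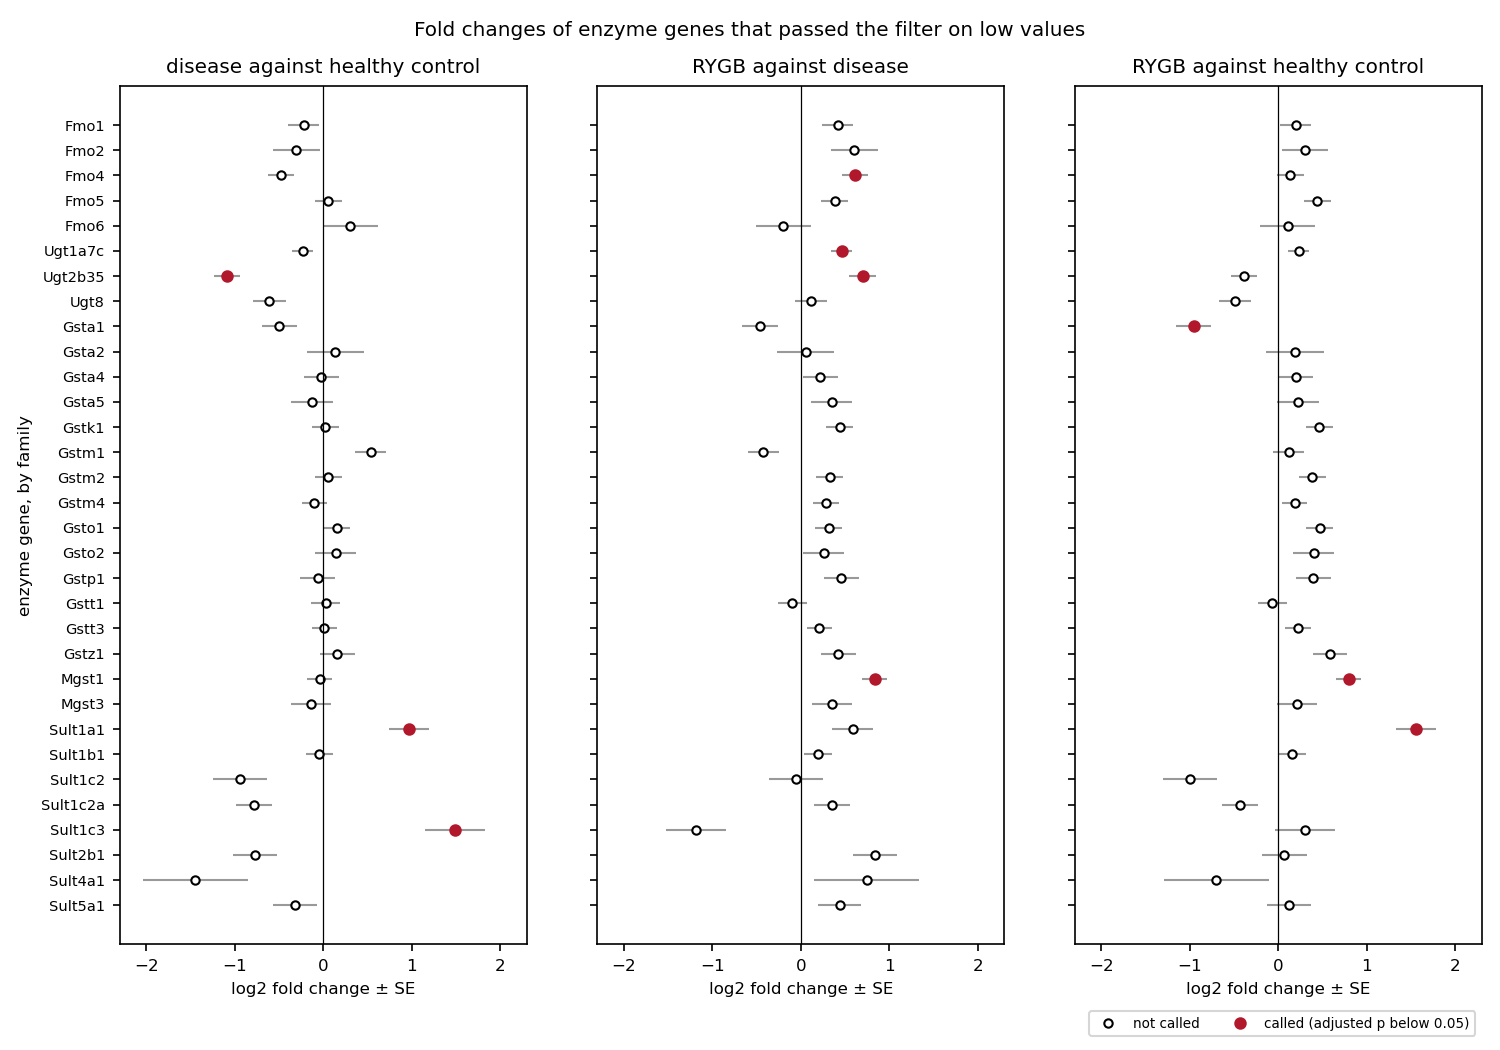
Log2 fold changes (x axis, log2 of value + 1, bars ± SE) of 32 tested enzyme genes in 3 comparisons, ordered by family down the y axis. Filled points passed an adjusted p below 0.05; in the RYGB against disease panel 26 of the 32 points lie right of 0.

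Among the FMO genes, Fmo4, a less studied member, had 2901, 3424 and 4954 normalised reads (lowest, median, highest) in RYGB, 1932, 2355 and 3136 in disease and 2704, 3347 and 4213 in healthy control. The RYGB and disease ranges overlapped only between 2901 and 3136. Fmo4 was higher in RYGB than in disease by 0.61 ± 0.15 (adjusted p = 0.0257), but not at the threshold without disease replicate 1 or 2 or RYGB replicate 1, 2 or 4 (adjusted p 0.0512 to 0.0671). For disease against healthy control it was -0.48 ± 0.15 (adjusted p = 0.15). With the replicate number as a block in those 2 groups alone the adjusted p was 0.0303.

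Fmo1, an FMO abundant in rodent kidney, was not called. It had 10702, 13602 and 15299 normalised reads in RYGB, 6122, 10585 and 14248 in disease and 9173, 11510 and 14072 in healthy control, so all 3 ranges overlapped. Its log2 fold change was 0.41 ± 0.17 for RYGB against disease (adjusted p = 0.182). Fmo2 and Fmo5 were also not called for RYGB against disease, at 0.60 ± 0.26 and 0.38 ± 0.15 (adjusted p = 0.197 and 0.169). For RYGB against healthy control Fmo5 stood at 0.44 ± 0.15 (adjusted p = 0.0943), called with the 2 groups fitted alone (0.0391) and without healthy control replicate 4 (0.0343). Fmo6 reached 10 normalised reads in 3 libraries of each group and at most 23.8 in any, and was not called (adjusted p 0.753 to 0.847).

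Among the UGT genes, Ugt2b35, of the subfamily that conjugates steroids and drugs, was lower in disease than in healthy control and higher in RYGB than in disease. It had 1546, 2000 and 2832 normalised reads in RYGB, 998, 1205 and 1710 in disease and 2127, 2764 and 3115 in healthy control. Every disease library lay below every healthy control library, and the RYGB libraries overlapped both groups. Ugt2b35 fell to a mean of 1270 ± 255 in disease, against 2682 ± 387 in healthy control (-1.09 ± 0.15, adjusted p = 0.000558). In RYGB it averaged 2073 ± 470, 1.63-fold the disease mean (0.70 ± 0.15, adjusted p = 0.0129). RYGB stood at -0.39 ± 0.15 against healthy control (adjusted p = 0.117). Its promoter is shown because the gene was called in 2 comparisons under every alternative. RefSeq (build GRCr8) places the 300 bases, 250 before to 50 after the gene's start, at chr14:21208191-21208490 on the plus strand:
Ugt2b35: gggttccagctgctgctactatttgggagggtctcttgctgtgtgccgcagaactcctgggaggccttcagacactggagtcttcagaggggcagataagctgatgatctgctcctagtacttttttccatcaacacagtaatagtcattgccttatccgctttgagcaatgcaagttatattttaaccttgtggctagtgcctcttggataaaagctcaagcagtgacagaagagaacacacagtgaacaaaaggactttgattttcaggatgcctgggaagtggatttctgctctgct

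Ugt1a7c belongs to the Ugt1a cluster, whose enzymes conjugate bilirubin, phenols and many drugs. In RefSeq 8 Ugt1a genes end at the same base as Ugt1a7c, and the deposited table has 1 row for the cluster, so the row cannot be assigned to 1 enzyme. It had 8524, 10383 and 12995 normalised reads in RYGB, 6550, 7474 and 8874 in disease and 7253, 9139 and 10747 in healthy control. RYGB and disease overlapped only through RYGB replicate 3 (8524) and disease replicate 4 (8874). The row was higher in RYGB than in disease by 0.46 ± 0.12 (adjusted p = 0.0315). The call was lost without disease replicate 1, 2 or 6 or RYGB replicate 1, 2, 4 or 5 (adjusted p 0.0583 to 0.0787). The other comparisons were at -0.23 ± 0.12 for disease against healthy control (adjusted p = 0.479) and 0.23 ± 0.12 for RYGB against healthy control (adjusted p = 0.215).

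Ugt8, which makes galactosylceramide of myelin and kidney membranes, was not called. It had 343, 388 and 534 normalised reads in RYGB, 292, 349 and 540 in disease and 458, 552 and 926 in healthy control. All 3 ranges overlapped. Its log2 fold change was -0.61 ± 0.18 for disease against healthy control (adjusted p = 0.127) and -0.49 ± 0.18 for RYGB against healthy control (adjusted p = 0.107).

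Among the glutathione-using enzymes, Mgst1 was higher in RYGB than in both other groups. MGST1 is a membrane-bound transferase and peroxidase of the endoplasmic reticulum and mitochondria. Mgst1 had 4551, 4881 and 5576 normalised reads in RYGB, 2249, 2625 and 3773 in disease and 2199, 2789 and 3959 in healthy control. Every RYGB library lay above every other library, and the other 2 groups spanned much the same range. The RYGB mean of 4955 ± 394 was 1.75-fold the disease mean of 2830 ± 631 (0.83 ± 0.14, adjusted p = 0.00226) and 1.71-fold the healthy control mean of 2897 ± 604 (0.80 ± 0.14, adjusted p = 0.00353). For disease against healthy control the difference was -0.04 ± 0.14 (adjusted p = 0.954), and its sign turned without healthy control replicate 4 (0.0575) or disease replicate 1 (0.0023), 2 (0.015) or 5 (0.023). The other microsomal gene, Mgst3, had 4373, 5954 and 7458 in RYGB, 3094, 4067 and 8262 in disease and 3166, 5826 and 6808 in healthy control and was not called in any comparison (adjusted p 0.389 to 0.877).

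Gsta1, an alpha-class transferase, ran the other way. It had 3308, 4664 and 5270 normalised reads in RYGB, 4296, 6139 and 9277 in disease and 5127, 9231 and 11270 in healthy control. RYGB and healthy control overlapped only because healthy control replicate 4 had 5127. Gsta1 fell in RYGB to 4439 ± 762, against 8787 ± 2336 in healthy control (-0.96 ± 0.20, adjusted p = 0.0115). Disease lay between them, at -0.49 ± 0.20 against healthy control (adjusted p = 0.322), and RYGB was at -0.46 ± 0.20 against disease (adjusted p = 0.195). Alpha-class genes are near copies of each other, and reads that fit several places were not counted to a gene, so this level is uncertain. The other alpha genes, Gsta2, Gsta4 and Gsta5, were not called (adjusted p 0.412 to 0.984). Gsta5 had 14800, 19312 and 21913 normalised reads in RYGB, 7013, 15946 and 22291 in disease and 11920, 15874 and 24048 in healthy control, and Gsta2 held 5.48 to 10.98% of the reads of Gsta5.

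The promoters of Mgst1 and Gsta1 are set side by side because these genes moved in opposite directions in RYGB against healthy control. Capitals mark the core of the antioxidant response element, TGACNNNGC on either strand, through which the factor NRF2 acts on many glutathione genes. RefSeq (GRCr8) gives them at chr4:172760680-172760979 (plus strand) and chr9:31216483-31216782 (minus strand):
Mgst1: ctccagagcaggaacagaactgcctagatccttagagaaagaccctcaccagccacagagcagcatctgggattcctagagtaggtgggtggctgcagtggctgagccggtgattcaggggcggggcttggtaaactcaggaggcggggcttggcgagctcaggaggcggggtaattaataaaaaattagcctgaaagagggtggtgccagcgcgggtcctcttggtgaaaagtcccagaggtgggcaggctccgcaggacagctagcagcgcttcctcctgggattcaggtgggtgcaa
Gsta1: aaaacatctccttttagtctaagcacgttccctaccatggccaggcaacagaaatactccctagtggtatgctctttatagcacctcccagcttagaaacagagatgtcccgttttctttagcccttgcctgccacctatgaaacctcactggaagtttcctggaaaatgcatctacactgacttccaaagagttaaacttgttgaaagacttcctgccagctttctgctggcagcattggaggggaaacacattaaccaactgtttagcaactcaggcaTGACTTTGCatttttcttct
Gsta1 has 1 such core, starting at base 281 of 300, which lies after the gene's start, and Mgst1 has no match in these letters. The core is in 12.2% of all promoters.

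The remaining GST classes were not called in any comparison. Gstz1, which also isomerises maleylacetoacetate in tyrosine breakdown, had 4165, 5066 and 5619 normalised reads in RYGB, 2636, 4001 and 4775 in disease and 2474, 3001 and 6743 in healthy control. The highest healthy control value belonged to replicate 4, and the other 5 had 2474 to 3482. Gstz1 stood at 0.58 ± 0.20 for RYGB against healthy control (adjusted p = 0.0842), and at an adjusted p of 0.00194 without that library.

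Gsto1, an omega-class thiol transferase, had 8809, 10705 and 13125 normalised reads in RYGB, 6208, 9044 and 12069 in disease and 6685, 7427 and 9525 in healthy control. The ranges overlapped, with RYGB highest by median. Its difference of RYGB from healthy control was 0.47 ± 0.15 (adjusted p = 0.0756). It was called by DESeq2 and with the 2 groups fitted alone (0.0299 in both) and without healthy control replicate 4 (0.0372). Gstk1, the mitochondrial kappa-class enzyme, had 1164, 1520 and 1775 in RYGB, 813, 962 and 1457 in disease and 783, 1086 and 1273 in healthy control, and stood at 0.46 ± 0.15 for RYGB against healthy control (adjusted p = 0.0797). It was called by DESeq2 (0.0375), with the groups alone (0.0409) and without healthy control replicate 4 (0.0424) or RYGB replicate 3 (0.043). For RYGB against disease Gstk1 was at 0.44 ± 0.15 (adjusted p = 0.113, and 0.0454 without disease replicate 3).

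Gstm1, of the mu class, was highest in disease by median, with 902, 1532 and 2124 normalised reads in RYGB, 1736, 1883 and 2365 in disease and 1101, 1293 and 1779 in healthy control. Disease and healthy control overlapped only between 1736 and 1779, yet the difference of 0.54 ± 0.18 was not called (adjusted p = 0.183). It was called when these 2 groups were fitted alone (adjusted p = 0.0424). Gstp1, the pi-class enzyme, had 2885, 4223 and 6920 in RYGB, 2244, 3274 and 3811 in disease and 2738, 3083 and 4517 in healthy control. Gstt3, of the theta class, had 17367, 22093 and 26226 in RYGB, 16487, 17275 and 23795 in disease and 14592, 19713 and 21703 in healthy control. For these 2 genes the groups overlapped and the adjusted p was 0.191 to 0.988 over the 3 comparisons.

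The second genes of these classes were not called either. Gstm2, also of the mu class, had 672, 1200 and 1356 normalised reads in RYGB, 616, 917 and 1061 in disease and 767, 808 and 944 in healthy control, with overlapping ranges. It was at 0.38 ± 0.15 for RYGB against healthy control (adjusted p = 0.131), called without RYGB replicate 1 (0.0461). Gsto2 had 43, 57.3 and 72.1 normalised reads in RYGB, 28.9, 52.7 and 66 in disease and 26.3, 45.8 and 56.3 in healthy control, and Gstt1 had 917, 1352 and 1517 normalised reads in RYGB, 949, 1313 and 1925 in disease and 1056, 1391 and 1597 in healthy control. Neither Gsto2 nor Gstt1 was called (adjusted p 0.272 to 0.971), nor was Gstm4 (0.269 to 0.851).

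Among the sulfotransferases, Sult1a1, the phenol sulfotransferase, was higher in both fa/fa groups than in lean cortex. It had 2106, 2957 and 3417 normalised reads in RYGB, 1400, 1704 and 2717 in disease and 750, 812 and 2137 in healthy control. Healthy control replicate 4 had 2137 and the other 5 had 750 to 963, so replicate 4 alone made the groups overlap. Sult1a1 rose in RYGB to 2868 ± 533, 2.75-fold the healthy control mean of 1042 ± 542 (1.55 ± 0.23, adjusted p = 0.000788). It rose in disease to 1949 ± 576, 1.87-fold the healthy control mean (0.97 ± 0.23, adjusted p = 0.0327). That second call was lost in edgeR (adjusted p = 0.0647), with the 2 groups fitted alone (0.0775) and without disease replicate 3 or 4 or healthy control replicate 1, 2, 3, 5 or 6 (0.0596 to 0.0986). Without healthy control replicate 4 it was 1.20 (adjusted p = 0.00061). RYGB against disease was 0.58 ± 0.23 (adjusted p = 0.151), called without healthy control replicate 4 (0.0432). RefSeq (GRCr8) places its promoter, shown because the RYGB call held throughout, at chr1:190706063-190706362 on the minus strand:
Sult1a1: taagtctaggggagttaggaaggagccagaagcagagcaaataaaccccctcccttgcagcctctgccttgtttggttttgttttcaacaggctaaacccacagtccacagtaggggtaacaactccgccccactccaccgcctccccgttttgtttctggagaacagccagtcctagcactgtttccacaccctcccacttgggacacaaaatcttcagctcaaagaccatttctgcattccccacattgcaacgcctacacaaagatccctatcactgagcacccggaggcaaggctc

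Sult1c3, a low-level member of the 1C subfamily, was highest in disease. It had 12.1, 16.6 and 37.5 normalised reads in RYGB, 27.4, 39.0 and 83.2 in disease and 8.41, 14.4 and 29.4 in healthy control. All 3 ranges overlapped. Sult1c3 rose in disease to 46.6 ± 22.05, 2.93-fold the healthy control mean of 15.9 ± 7.60 (1.48 ± 0.34, adjusted p = 0.0267). With the replicate number as a block, the adjusted p was 0.07, and 0.0501 with only these 2 groups fitted. The call was also lost without disease replicate 2, 4 or 5 or healthy control replicate 2, 3 or 6 (0.0507 to 0.0798). RYGB against disease was -1.18 ± 0.34 (adjusted p = 0.0543). That difference was called with a pseudocount of 10 (0.0439), by edgeR (0.0406), by DESeq2 (0.00888), and without healthy control replicate 4, disease replicate 3 or RYGB replicate 2 or 3 (0.0303 to 0.0466).

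Sult1c2a had 21458, 26146 and 34145 normalised reads in RYGB, 14347, 22096 and 31373 in disease and 26150, 38121 and 48934 in healthy control. Disease was lowest by median, and its range overlapped that of healthy control between 26150 and 31373. Its difference in disease, -0.78 ± 0.20, was just outside the threshold (adjusted p = 0.0531). It was called by edgeR (0.0482) and DESeq2 (0.00714), with TMM scaling (0.0494) and without disease replicate 6 (0.0199) or healthy control replicate 4 (0.0248) or 5 (0.0466). Sult1c2 is a near copy of it with 0.269 to 0.760% of its reads, so both are uncertain. Sult1c2 itself was at -0.94 ± 0.31 for disease against healthy control (adjusted p = 0.176) and -0.996 ± 0.31 for RYGB against healthy control (adjusted p = 0.0619). The second difference was called by edgeR (0.0422), by DESeq2 (0.0107) and with the groups alone (0.0231).

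Sult2b1, which sulphates cholesterol and related sterols, had 144, 225 and 300.2 normalised reads in RYGB, 59.4, 128 and 245 in disease and 169, 198 and 278 in healthy control. The ranges overlapped. It stood at -0.77 ± 0.25 for disease against healthy control (adjusted p = 0.18, and 0.0296 without disease replicate 5) and 0.84 ± 0.25 for RYGB against disease (adjusted p = 0.066, 0.0384 in DESeq2 and 0.0138 without the same library). Sult1b1 and Sult5a1 were not called (adjusted p 0.312 to 0.952), and Sult4a1 was at -1.45 ± 0.59 for disease against healthy control (adjusted p = 0.334).

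**Figure D2:**
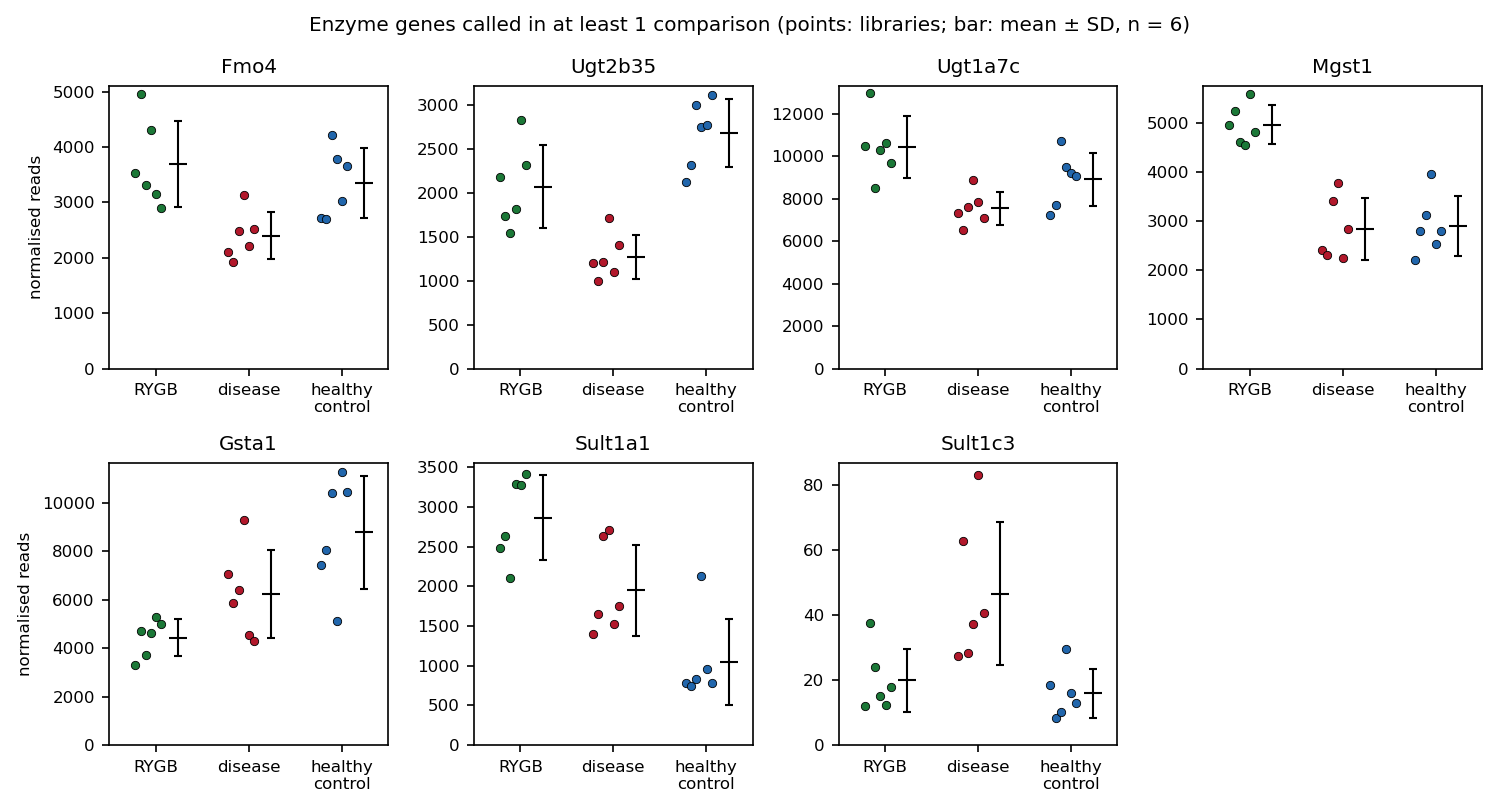
Normalised reads (y axis, from 0) of 7 enzyme genes called in at least 1 comparison, in RYGB, disease and healthy control; points are libraries and bars the mean ± SD (n = 6). The disease points of Ugt2b35 lie below all its healthy control points, the RYGB points of Mgst1 above all others, and 1 healthy control point of Sult1a1 (2137) sits apart from 5 at 750 to 963.

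RefSeq promoters were at hand for 29 of the 33 tested enzyme genes, and short motifs were counted on both strands. The antioxidant response element core, TGACNNNGC, was in 4 of the 29 (Gsta1, Gsta2, Gstp1 and Gstz1) and in 12.2% of all 27457 promoters. The core bound by the aryl hydrocarbon receptor, GCGTG, was in 9 of the 29 and 31.1% of all, and the CCAAT box in 18 of the 29 and 37.7% of all. The direct repeat with 1 base between, which nuclear receptors bind, was in 0 of the 29 and 0.0583% of all. Among the called genes with a promoter, Gsta1 held the first motif and the CCAAT box and Ugt1a7c held GCGTG.

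Genes that feed or follow the same reactions were read from lists chosen with earlier results of these data known. For glucuronidation, 0 of 4 genes of UDP-glucuronic acid supply were called by limma, edgeR or DESeq2 in any comparison. At an unadjusted p below 0.05 there was 1, lower in RYGB than in disease. Ugdh, which makes UDP-glucuronic acid, had 2465, 3565 and 4223 normalised reads in RYGB, 2249, 3238 and 4371 in disease and 3461, 4166 and 4502 in healthy control, with overlapping ranges (adjusted p 0.275 to 0.931). Of the 8 tested transporters that export conjugates 0 were called by these 3 tools, with 1 lower for disease against healthy control, 2 higher for RYGB against disease, and 1 higher and 1 lower for RYGB against healthy control at an unadjusted p below 0.05. Abcg2, which had the most reads of them, stood at 2762, 3095 and 3516 in RYGB, 1844, 3180 and 4071 in disease and 2864, 3522 and 5188 in healthy control.

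For glutathione, 3 of 9 tested genes of supply and mercapturate formation were called lower in disease than in healthy control, 2 were called higher in RYGB than in disease, and 1 higher in RYGB than in healthy control, beside 1.61%, 3.95% and 4.44% of all genes called in either direction. edgeR called 2, 4 and 1 in these directions and DESeq2 3, 6 and 1. The counts at an unadjusted p below 0.05 were 6 lower, 7 higher, and 2 higher with 2 lower. Of all genes 11.1%, 20.7% and 26.2% had such a p in either direction. The list's median log2 fold changes were -0.34, 0.65 and 0.078 in these comparisons. Gclc, the catalytic subunit of the enzyme that starts glutathione synthesis, had 6833, 14243 and 49521 normalised reads in RYGB, 2927, 5800 and 22418 in disease and 29670, 37038 and 73500 in healthy control. Every disease library lay below every healthy control library. RYGB replicates 2 and 4 had 39996 and 49521, and the other 4 RYGB libraries 6833 to 17276. Gclc fell in disease by 2.60 ± 0.49 on the log2 scale (adjusted p = 0.00685). Its modifier subunit Gclm was lower by -1.11 ± 0.28 (adjusted p = 0.0449, and 0.11 with the replicate block). The Gclm call was also lost in edgeR (0.0668), at a minimum of 50 (0.0566), and without disease replicate 1, 2, 3 or 4, RYGB replicate 1 or healthy control replicate 1, 2, 3, 5 or 6 (0.0583 to 0.136).

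Ggt1, the brush-border enzyme that starts the breakdown of glutathione conjugates, had 7468, 11928 and 17976 normalised reads in RYGB, 3081, 4323 and 7048 in disease and 6309, 8259 and 12670 in healthy control. Every RYGB library lay above every disease library. Ggt1 was higher in RYGB than in disease by 1.45 ± 0.23 (adjusted p = 0.00139), and lower in disease than in healthy control by -1.03 ± 0.23 (adjusted p = 0.0236). The second call was lost without disease replicate 1 or 2 or healthy control replicate 3 or 6 (0.0522 to 0.0762). Acy3, which deacetylates mercapturates, was higher in RYGB than in disease (1.03 ± 0.29, adjusted p = 0.048) and than in healthy control (1.07 ± 0.29, adjusted p = 0.0394). The first of these was lost at a minimum of 50 (0.0531), with no filter (0.0556) and without RYGB replicate 1, 2, 4, 5 or 6, disease replicate 1, 2, 5 or 6 or healthy control replicate 2, 3, 5 or 6 (up to 0.112). The second was lost without RYGB replicate 1, 2, 4, 5 or 6 or healthy control replicate 1, 2, 3, 5 or 6 (up to 0.11).

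For sulphation, 1 of 8 genes of donor supply was called higher in RYGB than in disease, beside 1.84% of all genes. Papss2, which makes PAPS, had 2271, 2502 and 2733 normalised reads in RYGB, 1623, 1859 and 2376 in disease and 1588, 1958 and 2414 in healthy control. RYGB was highest by median and overlapped both groups. The difference of RYGB from disease was 0.40 ± 0.11 (adjusted p = 0.0433), lost with those 2 groups fitted alone (0.0527) and without RYGB replicate 1, 2, 4, 5 or 6, disease replicate 1, 2, 3 or 5 or healthy control replicate 3 or 6 (up to 0.104). For the other comparisons limma called 0 of the 8: 1 was lower for disease, and 1 higher and 1 lower for RYGB against healthy control, at an unadjusted p below 0.05. edgeR called 0 and 1 in these, and DESeq2 0 and 2.

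Of 16 tested enzymes of methylation, acetylation and related conjugation, 1 was called lower in disease than in healthy control. In RYGB 2 were called higher than in disease, and 3 higher and 2 lower than in healthy control. Of all genes 1.61%, 3.95% and 4.44% were called in these comparisons. edgeR called 0 higher and 1 lower, 2 and 0, and 2 and 2. DESeq2 called 0 higher and 2 lower, 3 and 0, and 3 and 4. The counts at an unadjusted p below 0.05 were 1 higher and 5 lower, 4 and 1, and 6 and 5. The shares of all genes at that p were 11.1%, 20.7% and 26.2%. Hnmt, which methylates histamine, had 185, 358 and 2119 normalised reads in RYGB, 33.0, 110 and 489 in disease and 1366, 1611 and 3440 in healthy control. RYGB replicates 2 and 4 (1489 and 2119) were again the highest of their group, the other 4 being at 185 to 441. Every disease library lay below every healthy control library, and Hnmt fell by 4.19 ± 0.66 on the log2 scale (adjusted p = 0.00165). Inmt, an amine methyltransferase, had 3417, 5401 and 6842 in RYGB, 847, 1793 and 2163 in disease and 1117, 1485 and 3501 in healthy control. It was higher in RYGB than in disease, with no overlap, by 1.73 ± 0.26 (adjusted p = 0.000988), and than in healthy control by 1.67 ± 0.26 (adjusted p = 0.00164). Gamt, which methylates guanidinoacetate to creatine, had 1375, 2241 and 2695 in RYGB, 596, 905 and 1441 in disease and 599, 936 and 1391 in healthy control. It was higher in RYGB by 1.26 ± 0.23 against disease (adjusted p = 0.00353) and 1.17 ± 0.23 against healthy control (adjusted p = 0.0072).

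The other calls in this list were for RYGB against healthy control. Bhmt, which remethylates homocysteine with betaine, was higher by 1.51 ± 0.33 (adjusted p = 0.0149, and 0.0542 in edgeR), with 9744 normalised reads in healthy control replicate 4 and 1708 to 2206 in the other 5. Without that library its fold change was 1.89 (adjusted p = 1.45e-05). Glyatl1, an acyltransferase, was lower by -1.96 ± 0.40 (adjusted p = 0.00975). Nat2, an N-acetyltransferase, was lower by -0.58 ± 0.15 (adjusted p = 0.0353), a call lost with no filter (0.0517) and without RYGB replicate 1, 2, 4 or 6 or healthy control replicate 1, 2, 3 or 5 (up to 0.0967).

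For RYGB against healthy control 2.46% of all genes were called higher. Of 11 tested regulators of these enzyme genes, 2 were called, both higher in that comparison. Among them was the liver factor Cebpa (0.65 ± 0.15, adjusted p = 0.0209), whose call was lost without RYGB replicate 1 or 6 or healthy control replicate 1 (adjusted p up to 0.0631). Nfe2l2, which encodes NRF2, had 4040, 4627 and 4958 normalised reads in RYGB, 4753, 4863 and 6477 in disease and 4506, 5351 and 5980 in healthy control and was not called (adjusted p 0.248 to 0.952). For disease against healthy control limma, edgeR and DESeq2 called 0 of the 11 (1 higher at an unadjusted p below 0.05). For RYGB against disease limma called 0 and edgeR and DESeq2 1 each (3 higher at an unadjusted p below 0.05).

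**Figure D3:**
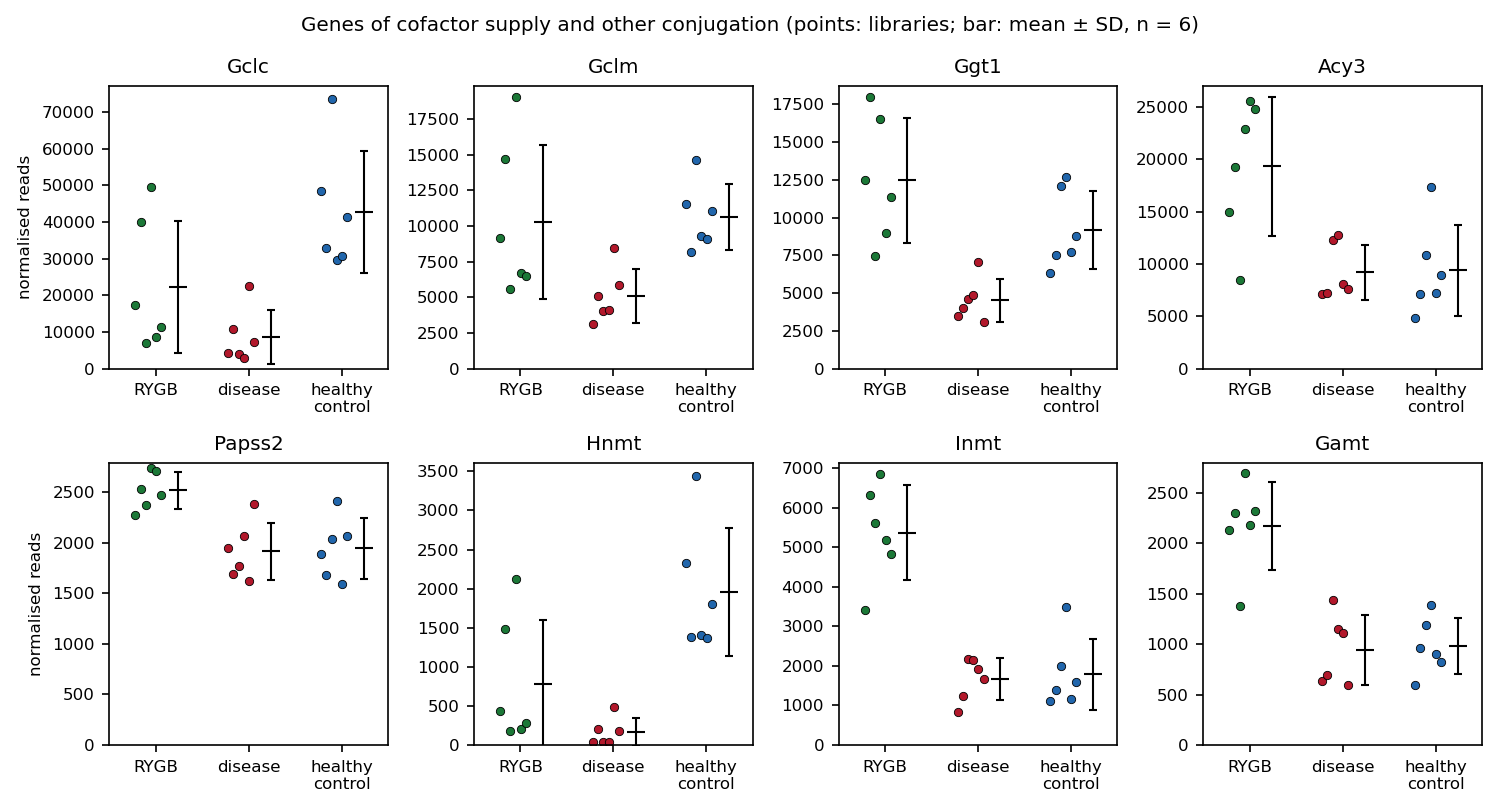
Normalised reads (y axis, from 0) of 8 genes of glutathione, sulphate donor and methyl conjugation in RYGB, disease and healthy control; points are libraries and bars the mean ± SD (n = 6), not drawn below 0. All disease points of Gclc and Hnmt lie below all healthy control points, and all RYGB points of Ggt1 and Inmt above all disease points.

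Markers of some tubule segments moved between the same groups. The summed level of 8 late proximal tubule markers was 26067 to 81439 normalised reads in RYGB, 18922 to 41081 in disease and 66966 to 146578 in healthy control. Of these 8, 7 were called lower in disease than in healthy control, 1 higher in RYGB than in disease and 4 lower in RYGB than in healthy control. Every disease sum lay below every healthy control sum. RYGB replicates 2 and 4 had sums of 72918 and 81439 and the other 4 RYGB libraries 26067 to 36239, the same 2 libraries that were highest in Gclc, Gclm and Hnmt. They were also the highest 2 RYGB libraries in Ggt1 and in the enzyme genes Fmo4 (4954 and 4315 normalised reads), Gsto2, Gstp1, Sult1b1, Sult2b1 and Sult4a1. Replicate 2 alone was highest in Ugt1a7c, Sult1c3, Gstm4 and Ugt8. The share of all genes with these patterns is not given. In Ugt2b35, Mgst1, Gsta1 and Sult1a1 they were not the highest 2. Ugt2b35 had 1737 and 1816 normalised reads in these 2 libraries, within the RYGB range of 1546 to 2832. It had 1096 in disease replicate 5, whose sum was the highest of disease (41081). Of 11 general proximal tubule markers limma, edgeR and DESeq2 called 0 for disease against healthy control (2 lower at an unadjusted p below 0.05), and limma called 1 higher in RYGB than in disease and 1 lower in RYGB than in healthy control. For RYGB against disease DESeq2 called 3 higher and 1 lower, with 5 higher and 1 lower at an unadjusted p below 0.05. These 11 had a median log2 fold change of -0.21 in disease against healthy control, of 0.40 in RYGB relative to disease and of 0.27 in RYGB relative to healthy control. Their sums were 271428 to 445530 in RYGB, 186585 to 394899 in disease and 257884 to 429444 in healthy control.

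The 10 tubular injury markers summed to 17718 to 20616 normalised reads in RYGB, 26556 to 52073 in disease and 13205 to 21450 in healthy control. Of the 9 tested, 6 were called higher in disease than in healthy control, 4 lower in RYGB than in disease and 2 higher in RYGB than in healthy control. The healthy control library with the highest injury sum (21450) and the lowest late proximal tubule sum (66966) was replicate 4, which was also the highest in Sult1a1 and Gstz1 and the lowest in Gsta1. The 5 thick ascending limb markers summed to 47094 to 121463 in RYGB, 24809 to 73790 in disease and 76103 to 100670 in healthy control. Of these 5, 2 were called lower in disease than in healthy control and 3 higher in RYGB than in disease. Of 3 distal convoluted tubule and 6 collecting duct markers 0 were called for disease against healthy control. Their median log2 fold changes there were 0.24 and 0.16, with 1 higher in each list at an unadjusted p below 0.05. For RYGB against disease 1 collecting duct marker was called lower. The part of these shifts in the enzyme results was not tested.

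Liver is rich in the same enzymes, and its defining transcripts were low in every library: Cps1 had at most 3.08 and Alb at most 135 normalised reads. The 9 liver markers in the table summed to 1079 to 1488 in RYGB, 755 to 1589 in disease and 517 to 1396 in healthy control, and 2 of 5 tested, Apoc3 and Serpina1, were called higher in RYGB than in healthy control. Adrenal markers summed to 54.04 to 84.9 in RYGB, 38.5 to 67.3 in disease and 36.1 to 53.97 in healthy control. Every RYGB sum lay above every healthy control sum, and 1 of 3 tested was called higher in RYGB than in healthy control. Adipocyte markers summed to 527 to 1492 in RYGB, 736 to 1366 in disease and 702 to 1283 in healthy control. Macrophage markers summed to 7131 to 9881 in RYGB, 7882 to 10144 in disease and 5066 to 7027 in healthy control. No marker with a row in the table was at 0 in all libraries, but some listed markers had no row. Rows were found for 8 of 10 listed late proximal tubule, 5 of 8 thick ascending limb and 4 of 7 adrenal markers. The part of these cell types in the enzyme results was not tested.

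**Figure D4:**
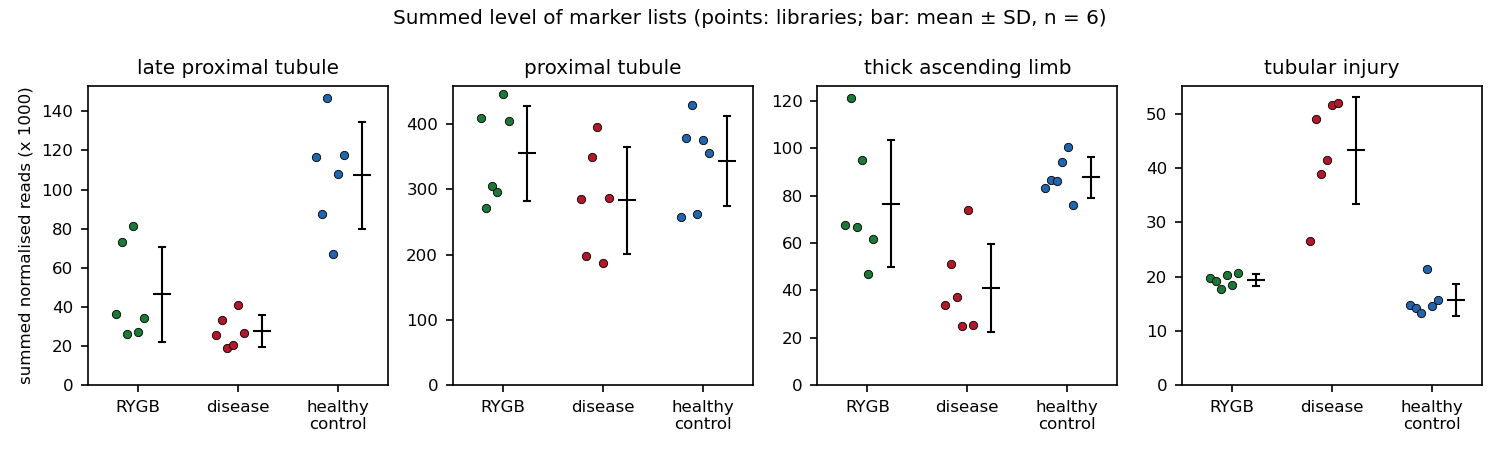
Summed normalised reads (y axis, x 1000, from 0) of 4 marker lists in RYGB, disease and healthy control; points are libraries and bars the mean ± SD (n = 6). Late proximal tubule sums of disease (18922 to 41081) lie below those of healthy control (66966 to 146578), and injury sums of disease lie above both other groups.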

How the data were processed

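Kidney cortex RNA of 18 libraries was prepared with a stranded messenger RNA kit, per the labels' protocols. The authors deposited a signal per gene: gene counts scaled by the size factor of each library. FastQC 0.11.2, MultiQC 0.9, HTSeq 0.6.1p1, DESeq2 and build Rnor 5.0 are named, per the submitters' processing notes. Aligner and annotation: not given in the sources used here. Of 18423 deposited rows, 3 name no gene and were left out: reads outside genes (27.6 to 43.2% of counted reads), reads with several alignments (13.5 to 18.1%) and ambiguous reads (0.0695 to 0.114%). Reads with several alignments were therefore not counted to near-identical enzyme copies. Multiplied by the size factors (0.401 to 2.02), 99.98 to 99.99% of values came out within 0.01 of whole reads. No 2 libraries of a group agreed within sampling noise.

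Comparisons used limma 3.58.1 in R 4.3.3 (trended variance) on log2(value + 1). The 13988 genes that reached 10 in 6 or more libraries entered 1 fit of 3 group means (15 residual degrees of freedom, two-sided, Benjamini-Hochberg over all genes, called at an adjusted p below 0.05). It was tested on simulated data for disease against healthy control. There 40.7% of 1.5-fold, 87.3% of 2-fold and 100% of 4-fold changes were recovered, and 4.61% of calls were false. The changes were planted only in genes with a mean of at least 50 normalised reads, so the recovery rates do not cover lower genes. A gene not called may still differ, and where libraries vary widely the difference need not be small. Gclc, for instance, was not called for RYGB against disease at a log2 fold change of 1.34. Alternatives were pseudocount 10, no filter, a minimum of 50, TMM scaling, edgeR 4.0.16 and DESeq2 1.42.0 on recovered reads, compared groups alone, the replicate number as a block, and leaving out each library. The block within disease and healthy control alone was added after seeing the data. By edgeR the recovered reads gave 224, 629 and 846 called genes for disease against healthy control, RYGB against disease and RYGB against healthy control. Deviations from the group means of same-numbered disease and healthy control libraries correlated at 0.131 to 0.325, every pair above 0.1. Some disease libraries matched a differently numbered healthy control library better, and the labels state no pairing. The numbers from the titles were therefore treated only as a possible pairing of these groups. The main fit was unpaired and the block was an alternative. Same-numbered libraries with RYGB correlated at -0.557 to 0.309 and were not treated as pairs.

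Enzyme genes and lists were chosen with earlier results of these data known. Named with values were the called enzyme genes, the 2 highest in each family or class, those with an unadjusted p below 0.05 where useful, and called genes of the lists. Of the 39 symbols 38 were found in the RefSeq table (GRCr8), which gave promoters. Some genes are counted in the totals and not reported here. Gene lengths were not used, so where reads of 2 genes are set beside each other they are reads, not transcript levels.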

Additional observations from a re-analysis of the deposited data

Results flagged for a closer look

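In groups of 6, a library was singled out where its gap to the nearest other was large against the group's range (Dixon's critical value at 95%), which chance gives in about 1 in 20 groups. Among 33 named genes and 99 groups there were 6 such values. Healthy control replicate 4 was the highest of its group in Sult1a1 (2137 normalised reads, the other 5 at 750.4 to 963.2), Gstz1 (6743, the others 2474 to 3482), Inmt (3501, the others 1117 to 2003) and Bhmt (9744, the others 1708 to 2206). Healthy control replicate 1 was the highest in Ugt8 (925.7, the others 457.5 to 621.2). RYGB replicate 5 was the highest in Nat2 (85.55, the others 54.85 to 64.67).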

How the results depend on the processing

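For disease against healthy control, 225 genes were called, 143 at a minimum of 50, 410 by DESeq2 and 124 to 310 without any 1 library. At a minimum of 50 Sult1c3 was no longer tested, which left 1 of the 2 enzyme genes called higher. By edgeR and with the replicate block, alone or over all groups, the 2 became 1. They became 0 to 2 without any 1 library, and the 2 called lower became 2 to 3. For RYGB against disease, 552 genes were called, 1098 by DESeq2 and 259 to 817 without any 1 library. Enzyme genes called higher (5) became 3 to 6 without any 1 library. Those called lower (0) became 1 with pseudocount 10, edgeR or DESeq2, and 0 to 1 without any 1 library. For RYGB against healthy control, 621 genes were called, 1602 by DESeq2, 1442 with the 2 groups fitted alone and 203 to 1501 without any 1 library. Enzyme genes called higher (2) became 4 by DESeq2, 5 with the groups alone and 2 to 6 without any 1 library. Those called lower (1) became 2 by edgeR, DESeq2 or the groups alone, and 1 to 2 without any 1 library. The cause of these changes was not tested, apart from Sult1c3 leaving the test at a minimum of 50.

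The sign of Mgst1 for disease against healthy control turned when 1 library was left out, with a range from -0.126 to 0.0575. With the replicate block 158, 408 and 496 genes were called in the 3 comparisons in the order above. Beyond the values given with the genes, the block moved Ugt1a7c (0.0668) for RYGB against disease and Nat2 (0.0581) and Fmo5 (0.0474, gained) for RYGB against healthy control, where the numbers were not found to pair. It changed no other call of the enzyme genes and list genes followed. Own numbers were the best match in 3 of 6 disease libraries. Of the single-gene values under alternatives, 1425 kept direction and call, 98 lost the call, 40 gained it and 4 turned sign. Sult1c3, Fmo6 and Sult4a1 rest on few reads (at most 64, 32 and 52 in any library), so counting error weighs more on them.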
